A study of Mus musculus with 2 samples.

Results

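The genes described here are 8 members of the LIN28 and let-7 axis, namely Lin28a, Lin28b, Trim71, Igf2bp1, Igf2bp2, Igf2bp3, Hmga1 and Hmga2. They were taken by name from a table of 17408 genes, and all 8 were in it. The table comes from 3' RNA-seq of single cells in droplets, taken without sorting at day 16 as mouse cells were being turned into induced pluripotent stem cells (iPSCs). Mouse embryonic fibroblasts (MEFs) had been grown with serum, LIF and ascorbic acid, and carried STEMCCA, a single doxycycline-inducible cassette of Pou5f1, Sox2, Klf4 and Myc. The data consist of 2 libraries, replicate 1 with 3109 cells and replicate 2 with 3914 cells, both of the same time point and treatment. The study used a pair of independent STEMCCA mouse systems, and which library came from which is not given in the labels, so a difference between systems and any other difference between the libraries cannot be told apart.

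LIN28A and LIN28B are RNA-binding proteins of early embryos and stem cells. They bind the precursors of the let-7 microRNAs and keep them from maturing, while mature let-7 represses the mRNAs of Lin28 and of the other genes listed here through sites in their 3' untranslated regions (3' UTRs). TRIM71 is an RNA-binding ubiquitin ligase of early embryos. The IGF2BP proteins bind mRNAs and govern their stability and transport, and HMGA1 and HMGA2 are chromatin proteins that bind AT-rich DNA. These genes are called oncofetal because most are active in the embryo, largely silent in most adult tissues and active again in many tumours. LIN28A is also 1 of the factors that can be used to make iPSCs.

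Mature let-7 has no poly(A) tail and was not measured by this assay. Its sequences are shown because its seed, bases 2 to 8 from the 5' end, is what defines the sites in these mRNAs. In the RefSeq table of mouse microRNAs (GRCm38.p6), 11 mature microRNAs from 13 gene copies shared 1 seed, printed in capitals. Of those shown, let-7a lies at chr13:48538239-48538260 on the minus strand, let-7g at chr9:106178846-106178867 on the plus strand, let-7i at chr10:122985698-122985719 on the minus strand and miR-98 at chrX:151913229-151913250 on the plus strand.
let-7a-5p: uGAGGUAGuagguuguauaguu
let-7g-5p: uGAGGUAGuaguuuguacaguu
let-7i-5p: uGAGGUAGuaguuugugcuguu
miR-98-5p: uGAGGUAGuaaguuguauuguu

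The complement of that seed, CTACCTC, was searched for on the sense strand of the longest 3' UTR of each gene (GENCODE M21, GRCm38). It was in 10.2% of the 15072 genes of the table with an annotated 3' UTR, and 12 genes held at least 4 copies. Every member held it. Lin28b, Hmga2, Igf2bp1 and Trim71 held 4 copies each, Lin28a held 2, and Hmga1, Igf2bp2 and Igf2bp3 held 1 each. The 3' UTRs of the members were long, from 1183 bases in Hmga1 to 6337 in Igf2bp1, where the median of all genes was 1096. The members were chosen as genes of this axis, so these counts describe them and are not a result. The first site of the genes with 4 copies is shown with the site in capitals, together with sites 3 and 4 of Trim71, which begin 26 bases apart. In the mRNA each lies within the 3' UTR. The sites shown are at chr10:45381023-45381029 for Lin28b, chr10:120364225-120364231 for Hmga2, chr11:95961779-95961785 for Igf2bp1, and chr9:114512473-114512479, chr9:114509048-114509054 and chr9:114509022-114509028 for Trim71, all on the minus strand.
Lin28b site 1: cccgggcgggaagtCTACCTCa
Hmga2 site 1: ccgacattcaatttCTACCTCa
Igf2bp1 site 1: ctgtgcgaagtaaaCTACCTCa
Trim71 site 1: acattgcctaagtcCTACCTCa
Trim71 site 3: ttagtatggattttCTACCTCa
Trim71 site 4: tggcaaaaagttgtCTACCTCa

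**Figure D1:**
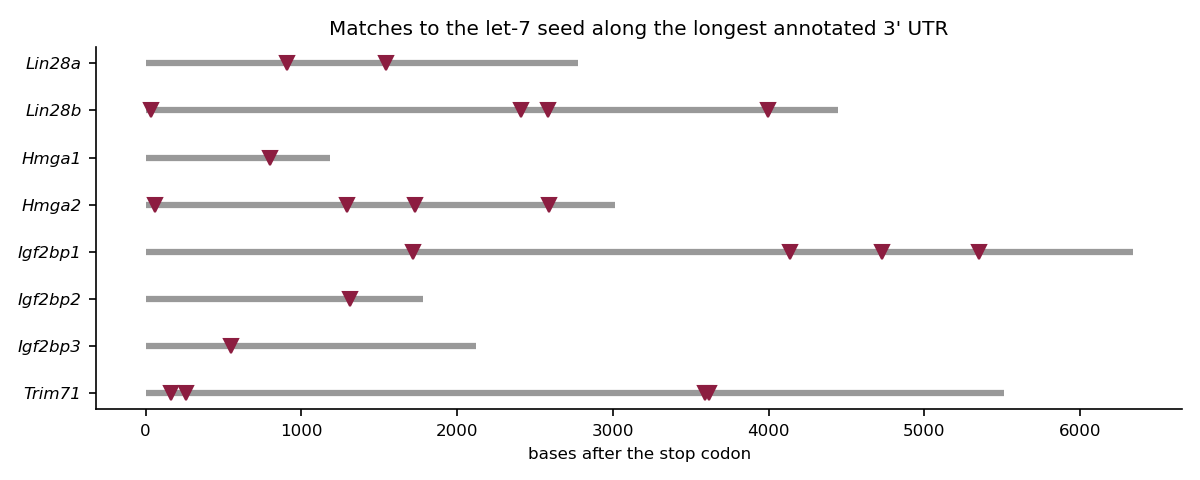
Matches to the let-7 seed (triangles) along the longest annotated 3' UTR of each gene (grey bars), in bases after the stop codon. Lin28b, Hmga2, Igf2bp1 and Trim71 carried 4 matches each, Lin28a 2 and the other genes 1.

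Levels are given as unique molecular identifiers (UMIs, 1 per RNA molecule counted) per 10000 UMIs of the cell, averaged over the cells of a cluster in each library. The deposited table held 54145377 UMIs in replicate 1 and 64654306 in replicate 2, with medians of 15625 and 14292 per cell. The libraries shared 12 cell barcodes. Hmga1, Hmga2, Igf2bp1, Igf2bp3 and Trim71 each overlap a gene of the table on the other strand, and as the use of strand in counting is not known, reads of such a pair may not have been told apart. Cells were clustered without the members, their pathway genes and the X-linked and Y-linked genes, and 12 of the 16 clusters held at least 30 cells in each library. Cluster 6 was pluripotent-like, with 12 of 12 pluripotency markers raised, and held 146 and 391 cells. Cluster 10 was fibroblast-like (11 of 13 markers, 251 and 170 cells), cluster 5 myofibroblast-like or smooth-muscle-like, clusters 4 and 7 mitotic-like and cluster 8 S-phase-like. Clusters 0, 1, 2, 3, 9 and 11 stayed unnamed. Pluripotent-like cells were deeper, with medians of 28768 and 26097 UMIs against 13178 and 11224 in fibroblast-like cells, and the part of depth in the results was not tested beyond the thinned values given below.

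The first question was which of the genes set the pluripotent-like cells apart. Lin28a, Lin28b, Trim71 and Igf2bp1 did so by the largest factors. Hmga1, Igf2bp3 and Igf2bp2 were modestly higher, and Hmga2 was lower. Lin28b, with a mean of 0.00165 UMIs per 10000 over all cells, failed the filter of 0.02, so 7 of the 8 genes were tested. Lin28a passed it only through the pluripotent-like cells (mean of 0.00210 in all other cells), so it had to differ to be tested at all. Of the other 6, tested with limma against the mean of the 11 other clusters, 5 were higher and 1 was lower at an adjusted p below 0.05. Among all 11106 genes tested, 72.2% passed this test, 30.3% as higher and 42.0% as lower, so a call by itself says little about a gene and the sizes are given throughout. The clusters were formed from genes that vary along with these, and the test then shows that a difference was alike in both libraries. Over all genes tested the median difference was -0.10 on the log2 scale.

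**Figure D2:**
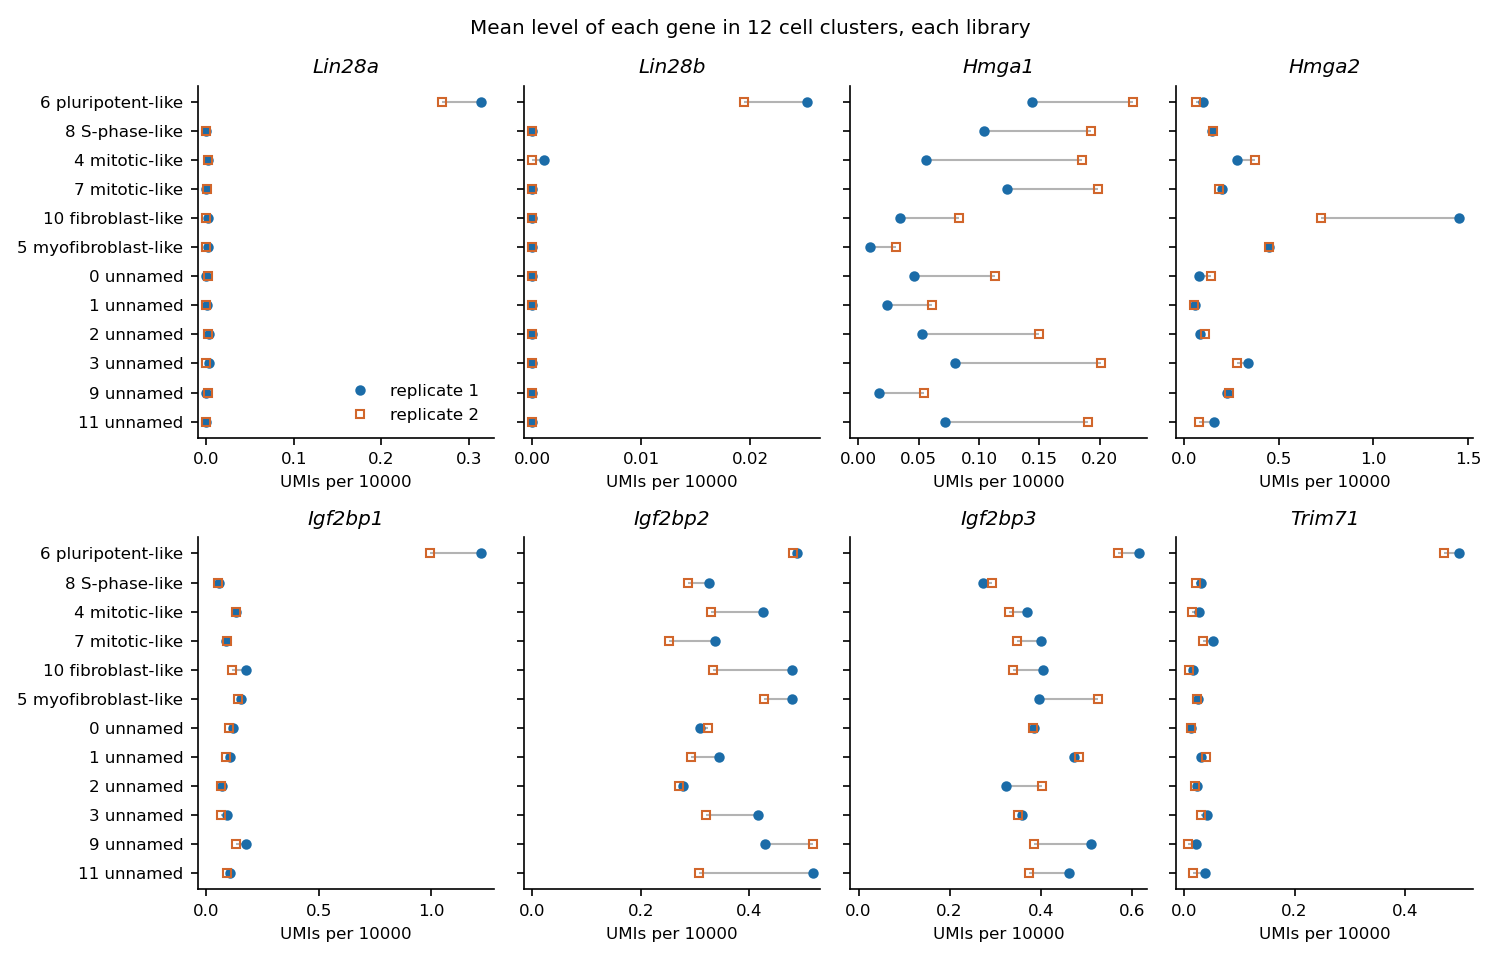
Mean level of each gene, in UMIs per 10000, in the 12 clusters with at least 30 cells in each library, with replicate 1 as filled circles and replicate 2 as open squares. Lin28a, Lin28b, Trim71 and Igf2bp1 stood apart in cluster 6, Hmga2 was highest in cluster 10, and Hmga1 was higher in replicate 2 in each cluster.

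Lin28a lies at chr4:134003330-134018841 on the minus strand (GRCm38, as are all positions here). In the pluripotent-like cluster it reached 0.313 UMIs per 10000 (replicate 1) and 0.269 (replicate 2), a mean of 0.291 ± 0.031 (SD, n = 2). In the 11 other clusters it was at most 0.00364 in replicate 1 and at most 0.00254 in replicate 2, and 0 in several. The gene was thus nearly restricted to cluster 6, which held 132 of its 142 UMIs in replicate 1 and 303 of its 322 in replicate 2. Cells with at least 1 Lin28a UMI made up 54.8% of the pluripotent-like cells of replicate 1 (95% exact binomial interval 46.4 to 63.0) and 45.5% of those of replicate 2 (40.5 to 50.6). In fibroblast-like cells, which should lack the gene, the shares were 0.398% and 0% (0 of 170 cells, which allows up to 1.76%). With every cell thinned to 3000 UMIs the pluripotent-like shares fell to 7.53% and 7.93%, against 0.101% and 0.0284% in all other cells. All intervals on shares and counts reflect the error of counting alone. The difference from the other clusters was 1.95 on the scale of log2(level + 0.1) with an SE of 0.056, a scale that understates changes of low genes: with a pseudocount of 0.01 it was 4.77. Among the 11 other clusters no difference in Lin28a passed the test (limma F test, adjusted p = 1.00), at levels near that of single UMIs.

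Lin28b (chr10:45376620-45486395, minus strand) was far rarer, and is given as counts. In replicate 1 the pluripotent-like cells held 10 UMIs in 9 cells, and all other cells held 1 UMI, in mitotic-like cluster 4. In replicate 2 they held 21 UMIs in 20 cells, and all other cells held 0. Summed over cells this came to 0.0236 UMIs per 10000 in replicate 1 (95% exact Poisson interval 0.0113 to 0.0435) and 0.0203 in replicate 2 (0.0126 to 0.0310). The ratio to all other cells was 118 in replicate 1, with a counting interval of 16.8 to 5123. In replicate 2 the level was 36.7-fold the limit of 3 counts that a count of 0 allows in all other cells together. That value leaves out the counting error of the 21 UMIs, so it is not a lower bound. In the same cells Lin28a had 13.2 UMIs for each UMI of Lin28b in replicate 1 and 14.4 in replicate 2.

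Trim71 (chr9:114507133-114564369, minus strand) reached 0.499 and 0.471 UMIs per 10000 in the pluripotent-like cluster (0.485 ± 0.019, SD, n = 2). The next cluster by the mean of both libraries, mitotic-like cluster 7, had 0.0522 and 0.0332, while in replicate 2 alone cluster 1 came next with 0.0392. The libraries of these neighbours in the order of levels did not overlap. Its difference from the other clusters was 2.24 on the log2 scale (SE 0.071, limma adjusted p = 7.4e-17), and that from the fibroblast-like cluster was 2.39 (SE 0.096, adjusted p = 5.7e-15). Unlike Lin28a, Trim71 was also found at a low level elsewhere, with 164 UMIs in all other cells of replicate 1 and 118 in those of replicate 2. Its levels in the 11 other clusters ran from 0.0119 to 0.0427 as means of both libraries, and a difference among them passed the test (F test, adjusted p = 0.027) but not under 4 alternatives, where adjusted p lay between 0.053 and 0.11.

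The IGF2BP genes, Igf2bp1 (chr11:95957163-96005940), Igf2bp2 (chr16:22059009-22163299) and Igf2bp3 (chr6:49085223-49214957), all on the minus strand, differed in how far they set the pluripotent-like cells apart. Igf2bp1, whose protein is known to bind Igf2 and Actb mRNA, reached 1.22 UMIs per 10000 in replicate 1 and 0.994 in replicate 2 (1.11 ± 0.16, SD, n = 2). The other clusters ran from 0.0568 to 0.179 in the former library and from 0.0535 to 0.140 in the latter. The difference of 2.56 on the log2 scale (SE 0.088, adjusted p = 3.0e-16) was the largest among the members. With a pseudocount of 0.01 it was 3.31, below Lin28a at 4.77 and Trim71 at 3.93. Against the fibroblast-like cluster the difference was 2.29 (SE 0.12, adjusted p = 3.3e-13). In the pluripotent-like cluster 91.1% of cells had an Igf2bp1 UMI in replicate 1 (95% interval 85.3 to 95.2) and 82.9% did in replicate 2 (78.8 to 86.5). The shares in the fibroblast-like cluster, whose cells were shallower, were 21.1% and 15.3%. With every cell thinned to 3000 UMIs the shares were 33.6% and 23.3% in the pluripotent-like cluster. The thinned shares in the fibroblast-like cluster were 5.58% and 3.53%. Among the other clusters it was highest in cluster 9 (mean 0.155), cluster 5 (0.148) and the fibroblast-like cluster (0.148), whose libraries overlapped, and lowest in the S-phase-like cluster (0.0552), and the differences among them passed the test (adjusted p = 7.8e-05).

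Igf2bp3 and Igf2bp2 were expressed in all 12 clusters. Igf2bp3 was at 0.616 and 0.570 in the pluripotent-like cells and at 0.274 to 0.510 and 0.293 to 0.525 in the other clusters of the respective libraries. It was highest in cluster 6 in both, by 0.51 on the log2 scale (SE 0.099, adjusted p = 9.8e-05), and lowest in the S-phase-like cluster. Igf2bp2 was at 0.488 and 0.481 in the pluripotent-like cells, within the range of the other clusters, which reached 0.518 in replicate 1 (cluster 11) and 0.517 in replicate 2 (cluster 9). It was higher than their mean by 0.36 (SE 0.11, adjusted p = 0.0058). Against the fibroblast-like cluster alone its difference was 0.22, with a 95% interval of -0.08 to 0.53, and did not pass the test (adjusted p = 0.18). No neighbouring clusters in the order of Igf2bp2 levels were apart in both libraries. Over all cells Igf2bp2 and Igf2bp3 had 4379 and 4650 UMIs, more than Igf2bp1 with 2701, although Igf2bp1 was the most abundant of these transcripts in the pluripotent-like cells; counts from the 3' end carry 1 UMI per molecule and do not scale with transcript length.

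HMGA1 and HMGA2 are close relatives, and their genes were highest in different clusters. Hmga2 (chr10:120361275-120476469, minus strand) was highest in the fibroblast-like cluster, at 1.45 UMIs per 10000 in replicate 1 and 0.723 in replicate 2 (1.09 ± 0.52, SD, n = 2). The myofibroblast-like cluster followed with 0.448 and 0.447. Mitotic-like cluster 4 (0.278 and 0.374) and cluster 3 (0.335 and 0.276) came after it, in the opposite order in replicate 1 and replicate 2. The pluripotent-like cells had 0.101 and 0.0636, and only cluster 1, with 0.0549 and 0.0505, was lower in both libraries. Against the fibroblast-like cluster the difference was -2.64 on the log2 scale (SE 0.21, adjusted p = 4.8e-10), and against all other clusters it was -0.81 (SE 0.16, adjusted p = 1.1e-04). The latter held without the fibroblast-like cluster, at -0.63 (adjusted p = 2.1e-04), a comparison added after the data had been seen. Neighbours in the order of Hmga2 levels did not overlap at 6 of the 11 steps, the most of any member.

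The summed level of the 13 fibroblast markers was 116 and 85.8 UMIs per 10000 in cluster 10 and 88.2 and 71.0 in cluster 5, the clusters with the highest Hmga2, and 44.1 and 28.7 in cluster 4. Cluster 3, with Hmga2 near that of cluster 4, had 9.10 and 9.38 of these markers. Cluster 9 came after cluster 4 in both libraries with 31.2 and 28.4, and there Hmga2 was at 0.224 and 0.235. Cluster 1 had 29.6 and 22.2 of these markers and the lowest Hmga2 of all. Over the 12 clusters the Pearson correlation of log2 levels was 0.63 in replicate 1 and 0.77 in replicate 2, as a description of clusters that share their library. In pluripotent-like cells the mean of the summed fibroblast markers was 1.99 and 1.41 in cells with an Hmga2 UMI and 2.34 and 1.80 in cells without. The medians were 2.06 and 0.957 in the former and 1.70 and 1.03 in the latter, so that in replicate 1 the mean and the median differed in direction.

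Hmga1 (chr17:27556497-27563674, plus strand) was highest in the pluripotent-like cells, at 0.144 in replicate 1 and 0.228 in replicate 2. By the mean of both libraries mitotic-like cluster 7 (0.123 and 0.199), the S-phase-like cluster (0.104 and 0.193) and cluster 3 (0.0805 and 0.201) came next, with cluster 3 the highest of these in replicate 2, and the myofibroblast-like cluster was lowest (0.00992 and 0.0312). The difference of the pluripotent-like cells from the other clusters was 0.62 on the log2 scale (SE 0.10, adjusted p = 1.7e-05) and that from the fibroblast-like cluster 0.85 (SE 0.14, adjusted p = 1.3e-05). Across the 12 clusters Hmga1 went with the summed S-phase markers (Pearson correlation 0.74 and 0.72) and with the mitotic markers (0.74 and 0.67), and against the fibroblast markers (-0.79 and -0.77). Cluster 3 was apart from this, with 1.64 and 1.76 UMIs per 10000 of S-phase markers and 1.17 and 0.879 of mitotic markers. So was cluster 11, with Hmga1 at 0.0717 and 0.191 (8 and 10 UMIs). It had 2.21 and 2.00 of S-phase markers and 0.804 and 0.833 of mitotic markers. Mitotic-like cluster 4 had 8.92 and 8.59 of S-phase markers and 19.1 and 15.7 of mitotic markers. Its Hmga1, at 0.0564 and 0.186, was below that of clusters 3 and 11 in both libraries. Hmga2 showed no such relation to the cell cycle markers, with correlations between -0.20 and -0.05. Pluripotent-like cells had 8.68 and 8.54 UMIs per 10000 of S-phase markers, near the 9.89 and 8.78 of the S-phase-like cluster, and the part of cycling in their Hmga1 level was not tested. How its reads were counted leaves the level of Hmga1 uncertain, and with it the difference between the libraries given below.

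**Figure D3:**
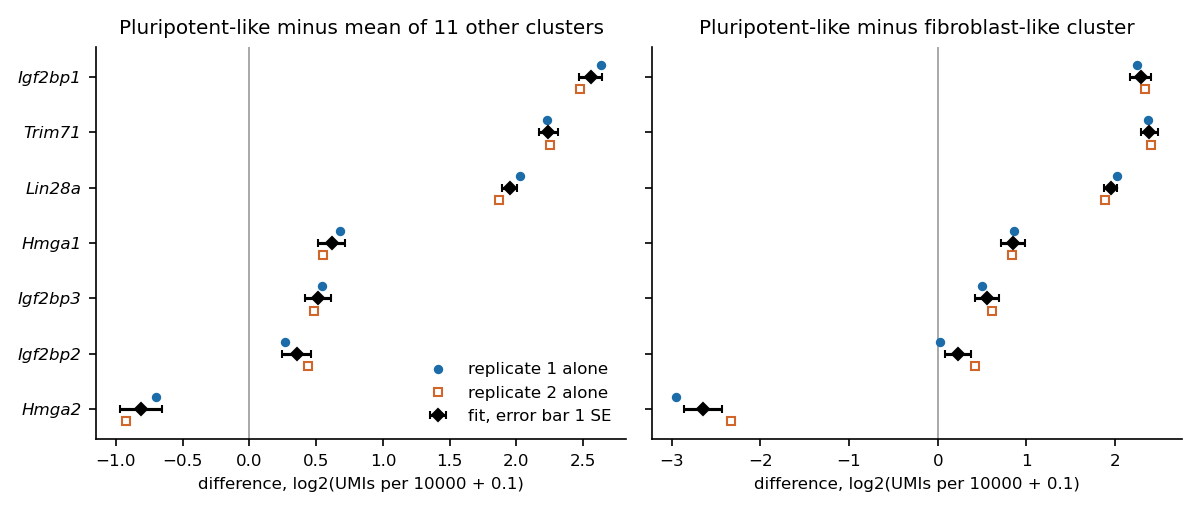
Difference of the pluripotent-like cluster from the mean of the 11 other clusters (left) and from the fibroblast-like cluster (right), on the scale of log2(UMIs per 10000 + 0.1), for the 7 genes tested. Diamonds give the fit with 1 SE and the other symbols each library alone; Igf2bp1, Trim71 and Lin28a lay near or above 2 in both, and Hmga2 lay below 0.

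Against the fibroblast-like cluster 70.9% of all genes tested passed and 29.1% were higher. Of the 6 members other than Lin28a, which had to differ here too, the 4 higher were Trim71, Igf2bp1, Hmga1 and Igf2bp3, the last by 0.56 (SE 0.13, adjusted p = 8.9e-04), and Hmga2 was the 1 lower. Among the 11 other clusters 6 of the 7 members differed, where 76.9% of all genes did. Lin28a, Igf2bp1 and Trim71 were seen together in single pluripotent-like cells, with a UMI of each in 61 of 146 cells of replicate 1 (41.8%) and 123 of 391 of replicate 2 (31.5%). Of all other cells, which were shallower, 1 of 2963 and 2 of 3523 had this. With every cell thinned to 3000 UMIs 1 of 146 and 3 of 391 pluripotent-like cells had a UMI of each, and 0 of all other cells in both libraries, so at equal depth these counts are too few to compare.

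The second question was whether the libraries agreed within clusters. For Hmga1 they did not: it was higher in replicate 2 in 12 of 12 clusters, by 1.58-fold to 3.29-fold with a median of 2.57-fold. The same library was higher in every cluster for 3.53% of the genes tested. On the scale of log2(level + 0.1), which understates changes of low genes, its median difference was 0.48. That ranked 67 of 11106 genes by size. Over all cells Hmga1 was at 0.0565 in replicate 1 and 0.141 in replicate 2, with 377 and 1077 UMIs.

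The other members differed less between the libraries. Median differences on the scale of log2(level + 0.1) lay between -0.16 for Igf2bp2 and -0.01 for Lin28a. Hmga2 differed most in the fibroblast-like cluster, by -0.92, where replicate 1 had 1.45 and replicate 2 had 0.723. In the same cells the summed fibroblast markers were 116 and 85.8. Igf2bp1 and Trim71 were higher in replicate 1 in 11 of 12 clusters each, by small amounts (medians of -0.11 and -0.10). The smallest p that an exact sign-flip test can reach over 2 libraries is 0.5, and none was run on these differences.

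**Figure D4:**
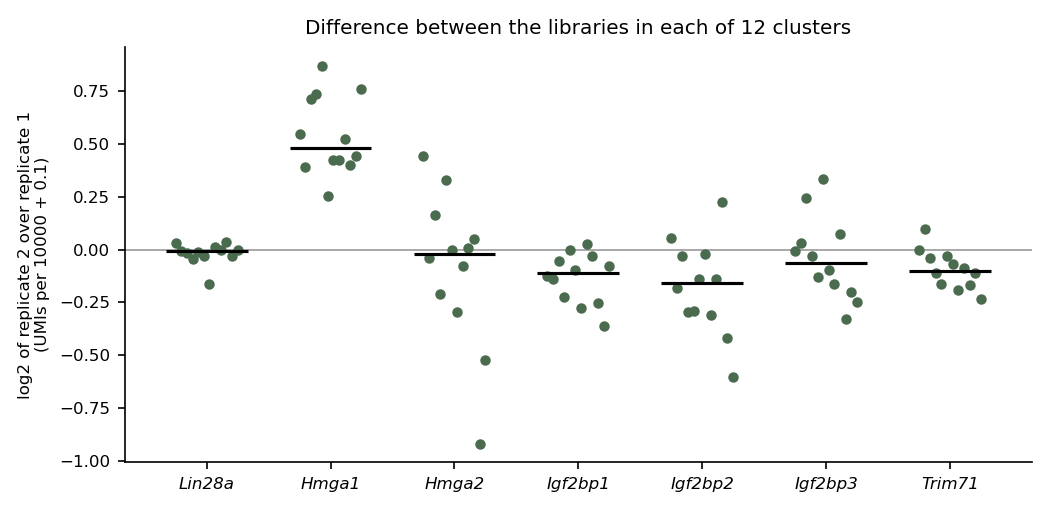
Log2 ratio of replicate 2 to replicate 1 (UMIs per 10000 + 0.1) in each of the 12 clusters (points) with the median (line), for the 7 genes tested. All points of Hmga1 lie above 0, with a median of 0.48, and the lowest point of Hmga2, at -0.92, is the fibroblast-like cluster.

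The pattern of each member over the 24 profiles (12 clusters in each library) was set against all other genes tested by Pearson correlation, as a description. For Lin28a the most alike were Gm26829 (r = 0.999), Rbmxl2 (0.998) and Tex19.1 (0.998). For Trim71 they were 4930566F21Rik (0.986), Dppa2 (0.985) and Sall4 (0.983), and for Igf2bp1 Spty2d1 (0.971), Taf7 (0.968) and Plekha4 (0.966). For these 3 members the profiles of cluster 6 stood apart from those of all other clusters, and the correlations rest on them. Dppa2 and Sall4 are among the 12 pluripotency markers by which cluster 6 was named. For Hmga2 the most alike were Fosl1 (0.900), Snai2 (0.897) and Rarres1 (0.883). Hmga1 was most like Kat2a (0.824), Nudt21 (0.814) and Psmg4 (0.814), Igf2bp2 like Klk8 (0.827), Arntl (0.808) and Klhl13 (0.802), and Igf2bp3 like Akap12 (0.834), Ddah2 (0.809) and Gabarapl2 (0.787). Among the members themselves Lin28a and Trim71 (0.979), Lin28a and Igf2bp1 (0.95) and Igf2bp1 and Trim71 (0.910) were most alike, and Hmga1 with Igf2bp2 least (-0.39).

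A further question was what the rest of the let-7 pathway did in the pluripotent-like cells. Of 13 genes of let-7 processing and turnover, 6 were higher than the mean of the other clusters, 4 were lower and 3 did not pass the test, with a median of 0.13. Of all genes tested 30.3% were higher and 42.0% lower, with a median of -0.10. Tarbp2, the partner of Dicer, was at 0.486 and 0.440 UMIs per 10000 in pluripotent-like cells against 0.217 and 0.205 as the mean of the other clusters (log2 difference 0.87, SE 0.089, adjusted p = 1.8e-08). Dicer1, which cuts the let-7 precursor, was higher by 0.87 (SE 0.11, adjusted p = 3.2e-07), and Drosha, which cuts the primary transcript in the nucleus, by 0.79 (SE 0.11, adjusted p = 1.0e-06). Prkra, another Dicer partner, was lower, at -1.05 (SE 0.079, adjusted p = 1.5e-10). Of the genes that act with LIN28A on the precursor, the uridylyl transferase gene Zcchc6 (Tut7) was lower, at -0.64 (SE 0.099, adjusted p = 7.5e-06), as was Dis3l2, whose exonuclease degrades the uridylated precursor, at -0.26 (SE 0.083, adjusted p = 0.0083). Zcchc11 (Tut4), the transferase best known as the partner of LIN28A, had a difference of -0.02 (adjusted p = 0.82).

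Of 7 genes of Argonaute and TNRC6 proteins, which carry out silencing by microRNAs, 1 was higher and 5 were lower, beside 30.3% and 42.0% of all genes tested, with a median of -0.55. Ago1 was at 0.123 and 0.118 against 0.309 and 0.279 (log2 difference -0.79, SE 0.093, adjusted p = 1.5e-07), and Tnrc6a (-0.70) and Ago4 (-0.57) were lower too. Tnrc6c was higher by 0.45 (SE 0.093, adjusted p = 2.0e-04). Ago2, the Argonaute protein able to cut its targets, had a difference of -0.01 (adjusted p = 0.90).

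Of 17 other known let-7 targets 16 were tested, and 6 were higher, 7 lower and 3 not past the test, with a median of -0.07. These counts are near the 30.3% and 42.0% of all genes tested. Mycn, a MYC family gene, was at 0.442 and 0.451 in pluripotent-like cells against 0.0101 and 0.00743 (log2 difference 2.33, SE 0.073), and like Lin28a it passed the filter only through these cells, which leaves 5 others higher. Hic2, a transcriptional repressor gene with 4 let-7 seed matches, was higher by 1.40 (SE 0.095, adjusted p = 2.8e-11), and Cdc34, a ubiquitin-conjugating enzyme gene, by 1.39 (SE 0.074, adjusted p = 4.7e-13). The cyclin D2 gene Ccnd2 was at 0.935 and 0.716 against 9.31 and 8.31, lower, at -3.16 (SE 0.13, adjusted p = 6.6e-15). Igf1r, the IGF1 receptor gene, was lower, at -2.72 (SE 0.075, adjusted p = 7.1e-18) and Ccnd1 at -1.33 (SE 0.15, adjusted p = 7.4e-08). The cassette carries Myc, and its RNA and that of the cell's own Myc cannot be told apart here.

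The 4 RNAs listed as bound by the IGF2BP proteins were all lower in the pluripotent-like cells, as were 42.0% of all genes tested, with a median of -1.90. A list of 4 genes allows no statement beyond its values. Cd44, a cell surface receptor gene, was at 0.0373 and 0.0472 against 0.878 and 1.01 (log2 difference -2.77, SE 0.10, adjusted p = 1.5e-15). The imprinted H19, a long noncoding RNA, was lower, at -2.75 (SE 0.25, adjusted p = 2.7e-09), and its neighbour Igf2, a fetal growth factor gene, at -1.06 (SE 0.23, adjusted p = 4.0e-04). Actb, beta-actin, was lower, at -0.74 (SE 0.046, adjusted p = 6.0e-12).

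**Figure D5:**
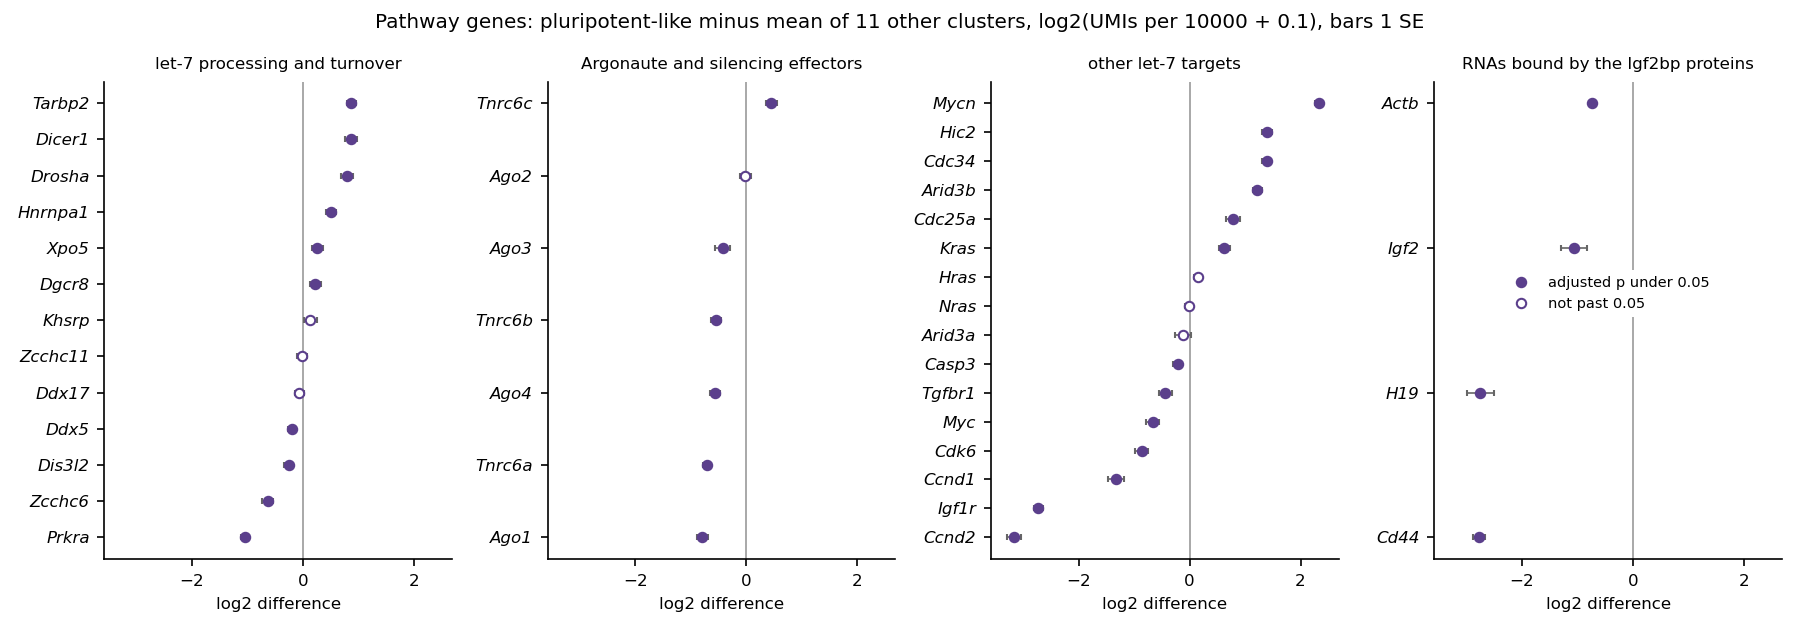
Difference of the pluripotent-like cluster from the mean of the 11 other clusters for the pathway genes tested, by list, on the scale of log2(UMIs per 10000 + 0.1) with bars of 1 SE and filled symbols for an adjusted p below 0.05. Genes of let-7 processing lay on both sides of 0, and 5 of the 7 Argonaute and TNRC6 genes were called lower. The other targets ran from -3.16 for Ccnd2 to 2.33 for Mycn.

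The number of let-7 seed matches was then set beside the differences over all genes tested with an annotated 3' UTR. Of 9402 genes with no match, 30.9% were called higher in the pluripotent-like cells and 41.9% lower, with a median of -0.10. Of 969 genes with 1 match the shares were 27.8% and 42.7%, with a median of -0.14. Of 112 genes with 2 matches 28.6% were higher and 46.4% lower, with a median of -0.16. The 21 genes with at least 3 matches had 6 higher and 7 lower and a median of -0.04, and the 18 of them that are not members had 4 higher and 6 lower. Among members with 4 matches Igf2bp1 and Trim71 were higher and Hmga2 was lower. Trim6, with 6 matches the most of the genes tested, was higher by 1.82 (adjusted p = 6.7e-15) and was named after its value had been seen.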

How the data were processed

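The authors deposited 1 table of expression values on a natural log scale for 17408 genes in 7023 cells of 2 libraries made with 10x 3' chemistry. Per the study's methods they counted reads with Cell Ranger (version 2.1.1, mm10), and filtered cells in Seurat on the number of detected genes (bounds of 1500 and 6000) and on the mitochondrial share (limit of 9%). Doublet removal and the use of strand in counting are not given in the sources used here. Each value is the natural log of 1 plus UMIs per 10000, which was checked on the table, and UMIs were recovered from it. Genes that overlap a member on the other strand in the table are AI413582 (Hmga1), 9230105E05Rik (Hmga2), Gm29202 (Igf2bp1), Malsu1 (Igf2bp3) and C130032M10Rik (Trim71). The suffix of each barcode, given in the labels, assigned cells to libraries, and replicates were numbered in the order of their records. Nothing says that they came from separate animals. With a library term in the fit, p-values measure how far differences between clusters varied between these libraries. A library shift shared by all clusters is left out of that spread, which may be technical.

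All cells were clustered with scanpy (version 1.11.5) and leidenalg (version 0.10.2) on 2000 variable genes, 30 principal components and 15 neighbours at resolution 1, without 653 genes (600 on X or Y and 53 named here, among them members and pathway genes). A cluster was named where at least 3 markers and at least 50% of a list were raised 2-fold. In addition, no other list could have more markers among the 10 leading genes of the cluster. A cluster of low depth with none of its markers there was to stay unnamed. Profiles were means over cells of linear values. They were tested with limma (version 3.58.1) on log2(mean + 0.1), with terms for cluster and library, for genes whose mean reached 0.02. Benjamini-Hochberg adjustment covered every gene in the fit, and 0.05 was the threshold. The code was tested on simulated data. Sequences came from RefSeq and GENCODE M21 tables.

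Named genes were the members, up to 3 higher and 3 lower per pathway list with the largest differences past the threshold and alike in direction in both libraries, and the 3 genes most like each member. The members, pathway lists, markers and rules were chosen with earlier results of these data known. Alternatives were other pseudocounts, filters, summed UMIs, cluster settings, no library term, each library alone, cells chosen by their own markers and, added later, no fibroblast-like cluster. An item that bears on the counting of Hmga1 reads is not reported here, and the levels of Hmga1 are to be read as uncertain for that reason.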

Additional observations from a re-analysis of the deposited data

How the results depend on the processing

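The 7 members tested kept their direction against the other clusters in all 96 values recomputed, and their side of the threshold wherever tested. Those 96 came from other pseudocounts, filters, summed UMIs, cluster settings, no library term, each library alone and cells chosen by their own markers. The comparison added later, without the fibroblast-like cluster, was among them. All 82 values against the fibroblast-like cluster kept direction and side too. Lin28a gave 13 of the 96 values and 11 of the 82. It passed the filter only through the pluripotent-like cells. Wherever the filter was used, Lin28a thus had to differ to be tested, and its agreement there is no sign of robustness. A mean of at least 0.1 left 5 members to test, without Lin28a, Lin28b and Trim71. Hmga1 passed that filter only through the pluripotent-like cells, with a mean of 0.103 over all cells and 0.0949 in all other cells. Its agreement at that setting is no sign of robustness either. With no filter Lin28b was tested too, and 8 members passed, as did 9759 of all 17408 genes. Lin28b had 1 UMI in all other cells of replicate 1 and 0 in those of replicate 2, so its pass adds nothing to its counts. The sizes depended on the pseudocount: Lin28a went from 0.37 with 1 to 4.77 with 0.01 on the log2 scale, Trim71 from 0.54 to 3.93 and Hmga2 from -0.22 to -1.22. For Igf2bp2 against the fibroblast-like cluster the difference was 0.03 in replicate 1 alone and 0.42 in replicate 2 alone. Its limma adjusted p ran from 0.05002 at resolution 0.5, barely above the threshold of 0.05, to 0.54 at resolution 2. Among the other clusters Trim71 lost its call with a pseudocount of 1 (adjusted p = 0.11), no library term (0.065), resolution 0.5 (0.059) and no fibroblast-like cluster (0.053), and the cause was not tested. After thinning, 5 of the 8 members had a UMI in a larger share of pluripotent-like cells than of all other cells, in both libraries. Lin28b, Hmga2 and Igf2bp2 did not. Igf2bp2 was at 10.3% against 10.5% in replicate 1 and at 11.5% against 9.42% in replicate 2. The count was 7 without thinning, where the pluripotent-like cells were deeper, and from 5 to 7 with either library alone. The share of all genes with such a difference was not computed. Depth limits Lin28b, whose 32 UMIs allow no statement about single clusters outside the pluripotent-like cells.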

Other observations

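Outside the 12 clusters tested, 4 cells of replicate 2 fell in the epithelial-like cluster 12 and held 11 of the 19 Lin28a UMIs found outside the pluripotent-like cluster in that library, 9 of them in 1 cell. That cell also held 3 Trim71 UMIs and had UMIs of 2 of the 12 pluripotency markers. The remaining cells had UMIs of 5, 4 and 4 of these markers, with 2, 0 and 0 Lin28a UMIs. In replicate 1 the 69 cells of the same cluster held 2 Lin28a and 16 Trim71 UMIs.

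Within the pluripotent-like cluster, cells with a UMI of Dppa3, a germ cell and naive pluripotency gene, were set beside cells without, with medians of 29424 and 27522 UMIs in replicate 1 and 27518 and 24095 in replicate 2. Hmga2 was lower in the former in both libraries, at 0.0654 against 0.156 UMIs per 10000 in replicate 1 (15 and 23 UMIs) and 0.0458 against 0.0848 in replicate 2 (29 and 46 UMIs). Igf2bp1 was higher, at 1.27 against 1.14 and 1.05 against 0.928, and Lin28a was lower, at 0.282 against 0.363 and 0.256 against 0.285. Trim71 and Igf2bp3 were higher in 1 library and lower in the other. These are values of cells from 2 libraries and were not tested.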
